A study of Homo sapiens with 12 samples.

Results

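KRT1, KRT4, KRT10 and KRT13 are the keratins that squamous epithelial cells switch on when they leave the basal layer, and their RNA was followed across 12 RNA sequencing libraries of Cal27, an established human tongue squamous carcinoma line. The members were the rows of the deposited count table with these 4 gene symbols. All 4 were found once among 25382 symbols, and all 4 passed the low-count filter that left 15437 genes for testing. The study asked what cells keep of an earlier mechanical environment. Cells were conditioned for 5 days and then replated for 1 day, in both phases on collagen-coated polyacrylamide gels.

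The 4 conditions had 3 libraries each, numbered 1 to 3. Stiff-to-soft cells had a gel of 20 kPa for conditioning and one of 0.48 kPa after replating. The LPA-to-FAKi cells were conditioned on the soft 0.48 kPa gel with lysophosphatidic acid (LPA), a signalling lipid with G protein-coupled receptors, and were replated on a soft gel while focal adhesion kinase (FAK), which signals at integrin adhesions, was inhibited. The LPA-to-soft cells had the same conditioning with LPA and were replated on a soft gel without the inhibitor. The soft-to-soft cells were on soft gels in both phases with neither agent. All cells carried the genotype that the labels give as WT. The labels name neither the inhibitor nor any dose, and all libraries come from 1 cell line. The series counts stiff-to-soft and LPA-to-soft as cells that had learned, and LPA-to-FAKi and soft-to-soft as cells that had not learned or had forgotten.

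Keratins are the intermediate filament proteins of epithelia, and a filament forms only from pairs of a type I and a type II chain. Basal cells of stratified epithelia make KRT5 and KRT14. Cells that move up exchange them for suprabasal pairs, which are KRT1 with KRT10 in epidermis and other cornified epithelia, and KRT4 with KRT13 in the non-cornified lining of the mouth and oesophagus. KRT1 and KRT4 are the type II chains and KRT10 and KRT13 the type I chains. The type II genes lie on chromosome 12 and the type I genes on chromosome 17. In squamous carcinomas of the mouth, loss of KRT4 and KRT13 is a known sign of lost maturation.

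The RefSeq promoter table held 2 of the 4 members, KRT4 and KRT10, and their 250 bases before the start are shown because both genes stood highest in the same condition. They run 5′ to 3′ on the minus strand of GRCh38.p14, at chr12:52814117-52814366 for KRT4 and chr17:40822615-40822864 for KRT10. Capitals mark TATAA, and CACCC or its reverse complement GGGTG.
KRT4: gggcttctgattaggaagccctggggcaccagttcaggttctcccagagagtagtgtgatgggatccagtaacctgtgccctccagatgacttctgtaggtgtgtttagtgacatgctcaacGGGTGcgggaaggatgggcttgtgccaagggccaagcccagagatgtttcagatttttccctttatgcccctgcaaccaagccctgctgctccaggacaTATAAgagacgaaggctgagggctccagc
KRT10: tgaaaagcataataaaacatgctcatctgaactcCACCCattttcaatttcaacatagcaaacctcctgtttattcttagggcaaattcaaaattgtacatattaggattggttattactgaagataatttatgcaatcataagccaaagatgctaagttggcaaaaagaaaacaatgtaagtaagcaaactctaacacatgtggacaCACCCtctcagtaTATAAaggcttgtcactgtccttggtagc
Both promoters held TATAA, the core of a TATA box, with its first base at position -29 from the start, and 18.9% of 35116 promoters of this length held it on either strand. CACCC, a box that Krüppel-like factors can bind, occurred 1 time in KRT4, at -128, and 2 times in KRT10, at -216 and -42. It is a common string that 54.7% of the promoters held. TGANTCA (an AP-1 site, in 6.57% of promoters), TGGGAA (the core bound by RBPJ, the Notch effector, in 20.8%) and GGAATG (the core bound by TEAD factors, in 11.9%) were searched on both strands and were found in neither window. No marked match overlapped another.

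Levels are given as CPM, the read counts scaled to a common library size, after TMM scaling, the correction of library size in edgeR. Total counts ran from 62953957 to 122311183 per library. In 10 libraries 96.8% to 97.8% of the counts from 1 to 19 were even, against 42.9% and 42.2% in soft-to-soft 1 and 2, so results against soft-to-soft are also given without those libraries where this changes a call. The squamous identity of the cells was checked with EPCAM, CDH1, TP63, KRT5, KRT14, PKP1, DSG3 and DSP. All 8 were expressed, with summed levels of 4140 to 7190 CPM in stiff-to-soft, 4290 to 6400 in LPA-to-FAKi, 5010 to 8440 in LPA-to-soft and 6990 to 9210 in soft-to-soft libraries. The 7 leukocyte markers summed to 16.1 to 21.4 CPM in stiff-to-soft, 20.3 to 47.5 in LPA-to-FAKi, 13.9 to 21.3 in LPA-to-soft and 16.1 to 20.9 in soft-to-soft libraries. CD68, a lysosomal protein used as a macrophage marker, gave most of that sum, whereas PTPRC, the general leukocyte marker, stayed at or below 0.0545 CPM and CD3E, of T cells, had no count. The 7 fibroblast markers summed to 14.6 to 36.4 CPM and the 4 endothelial markers to 11.1 to 37.8 CPM in stiff-to-soft, 5.74 to 15.9 in LPA-to-FAKi, 14.4 to 23.3 in LPA-to-soft and 11.1 to 22 in soft-to-soft libraries. The part of any of these in the results was not tested.

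KRT1, the type II partner of KRT10, was the most variable of the 4. It had 38.8, 1.37 and 5.09 CPM in stiff-to-soft libraries 1, 2 and 3, and 3.91, 1.58 and 2.75 CPM in LPA-to-FAKi libraries. It had 45.5, 7.68 and 8.50 CPM in LPA-to-soft libraries and 114, 14.99 and 12.3 CPM in soft-to-soft libraries. Every LPA-to-FAKi library was below every library of LPA-to-soft and of soft-to-soft, while stiff-to-soft overlapped all 3 other conditions. The share of all genes with such a separation was not computed for any pair of conditions. The means were 15.1 ± 20.6 CPM in stiff-to-soft, 2.74 ± 1.16 in LPA-to-FAKi, 20.6 ± 21.6 in LPA-to-soft and 47.2 ± 58.1 in soft-to-soft (SD, n = 3 each). Its highest library stood 83.1-fold above its lowest, and its variance on the log2 scale was at percentile 99.8 of all genes tested.

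KRT4, the type II chain of the oral pair, followed the same order with less spread. It had 66.6, 10.5 and 8.46 CPM in stiff-to-soft libraries, and 9.93, 10.96 and 10.2 CPM in LPA-to-FAKi libraries. It had 68.1, 24.1 and 23.3 CPM in LPA-to-soft libraries and 189, 77.6 and 29.9 CPM in soft-to-soft libraries. The LPA-to-FAKi libraries lay close together, with a coefficient of variation of 5.13%, and all 3 were below every LPA-to-soft and soft-to-soft library. The means were 28.5 ± 33.0 CPM in stiff-to-soft, 10.4 ± 0.53 in LPA-to-FAKi, 38.5 ± 25.7 in LPA-to-soft and 99.0 ± 81.9 in soft-to-soft (SD, n = 3 each).

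KRT10, the type I partner of KRT1, was the least variable of the 4. It had 36.3, 23.4 and 29.5 CPM in stiff-to-soft libraries, and 29.9, 24.5 and 27.9 CPM in LPA-to-FAKi libraries. It had 36.2, 28.4 and 28.5 CPM in LPA-to-soft libraries and 69.8, 33.9 and 30.6 CPM in soft-to-soft libraries. One library, soft-to-soft 1, stood apart from the other 11, which spanned 23.4 to 36.3 CPM. The means were 29.7 ± 6.46 CPM in stiff-to-soft, 27.5 ± 2.74 in LPA-to-FAKi, 31.0 ± 4.50 in LPA-to-soft and 44.8 ± 21.7 in soft-to-soft (SD, n = 3 each). Its whole range was 2.98-fold, and its variance on the log2 scale was still at percentile 69.7 of all genes tested.

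KRT13, the type I chain of the oral pair, was the most abundant. It had 334, 90.4 and 73.1 CPM in stiff-to-soft libraries, and 296, 172 and 119 CPM in LPA-to-FAKi libraries. It had 419, 124 and 129 CPM in LPA-to-soft libraries and 655, 346 and 184 CPM in soft-to-soft libraries. All conditions overlapped, and the library numbered 1 was the highest in each. The means were 165.9 ± 146 CPM in stiff-to-soft, 195.9 ± 90.9 in LPA-to-FAKi, 224 ± 169 in LPA-to-soft and 395 ± 239 in soft-to-soft (SD, n = 3 each).

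**Figure D1:**
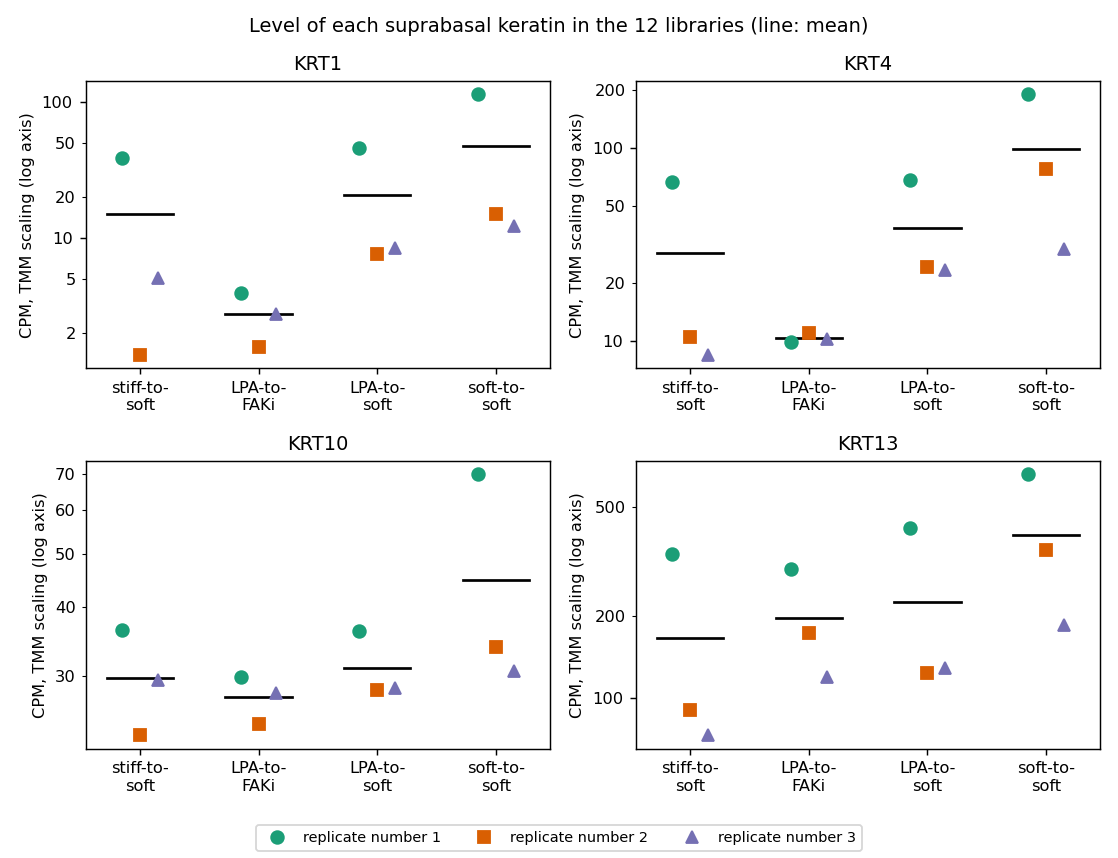
Level of KRT1, KRT4, KRT10 and KRT13 in each library, in CPM on a log axis, by condition from left to right; colour and shape give the replicate number and the line is the mean of 3 libraries. Within each replicate number the soft-to-soft library is the highest for all 4 genes, and the 3 LPA-to-FAKi libraries of KRT4 lie between 9.93 and 10.96 CPM.

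Per kilobase of coding sequence, the scale on which genes can be set against each other, KRT13 averaged 178 CPM per kilobase over the 12 libraries, KRT4 28.3, KRT10 19 and KRT1 11.1. KRT13 was above KRT4 in 12 of 12 libraries and above KRT10 in all 12. KRT10 was above KRT4 in 7 of 12 libraries, so the order of that neighbouring pair was not fixed. KRT1 was above KRT10 in 2 libraries and above KRT4 in none. The 4 genes together made up 3.44%, 1.5% and 1.35% of the counts of 55 keratin genes in stiff-to-soft libraries 1, 2 and 3, and 1.97%, 2.06% and 1.57% in LPA-to-FAKi libraries. They made up 3.87%, 1.94% and 1.97% in LPA-to-soft libraries and 5.90%, 3.36% and 2.31% in soft-to-soft libraries. The 4 members were thus a minor part of the keratin RNA in every library.

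Libraries with the same replicate number varied together, so each comparison was set within numbers too. The soft-to-soft library was the highest of the 4 conditions in replicate numbers 1, 2 and 3 for KRT1, KRT4, KRT10 and KRT13 alike. Of the genes tested, 3.15% had soft-to-soft highest in all 3 numbers. The libraries of replicate number 3 all had even low counts, and there soft-to-soft led with 12.3 CPM against 2.75 to 8.50 in the other conditions for KRT1, with 29.9 against 8.46 to 23.3 for KRT4 and with 184 against 73.1 to 129 for KRT13. For KRT10 the same values were 30.6 against 27.9 to 29.5 CPM, a narrow lead. The lowest condition was not the same throughout. It was LPA-to-FAKi for KRT1 and KRT10 in numbers 1 and 3, and for KRT4 and KRT13 in number 1, and it was stiff-to-soft otherwise.

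What stiff conditioning left after 1 day on a soft gel was read from stiff-to-soft against soft-to-soft. All 4 keratins were lower in stiff-to-soft within every replicate number, and KRT13 was called lower once replicate number was in the model. The share of all genes lower within every number was not computed for this comparison. Within numbers 1, 2 and 3 KRT13 differed by -0.97, -1.94 and -1.33 on the log2 scale. With replicate number as a block it fell by 1.41 ± 0.20 on the log2 scale (SE; edgeR quasi-likelihood test with Benjamini-Hochberg adjustment over all genes tested, adjusted p = 0.017). Without the block its value was -1.25 ± 0.69 with an adjusted p of 1. With the block 1 of the 4 members was called, against 0.583% of all genes, with 0.343% called lower and 0.24% higher. The call for KRT13 was lost without soft-to-soft 1 and 2 (-1.17, adjusted p = 0.36 in edgeR with the block), where no gene passed, and in 3 of the 12 fits that left out 1 library. Those were the fits without stiff-to-soft 2 (-1.26, edgeR adjusted p = 0.106), stiff-to-soft 3 (-1.34, edgeR adjusted p = 0.134) and soft-to-soft 3 (-1.53, edgeR adjusted p = 0.0605).

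KRT1 and KRT4 had larger differences with larger errors in the same comparison. KRT1 differed by -1.56, -3.43 and -1.27 within numbers 1, 2 and 3, and the block fit gave -1.89 ± 0.48 (edgeR adjusted p = 0.13). KRT4 differed by -1.51, -2.88 and -1.82, and the block fit gave -2.0 ± 0.46 (edgeR adjusted p = 0.0944). Neither passed the threshold of 0.05 in edgeR. Without the 4 libraries numbered 1, the block fit called both, with -2.24 (edgeR adjusted p = 0.0397) for KRT1 and -2.42 (edgeR adjusted p = 0.00726) for KRT4. Without LPA-to-FAKi 1 alone it also called both, KRT1 at -1.93 (edgeR adjusted p = 0.023) and KRT4 at -2.07 (edgeR adjusted p = 0.00925), and without stiff-to-soft 1 it called KRT4 at -2.70 (edgeR adjusted p = 0.043). Of the 12 block fits that left out 1 library, KRT1 was called in only 1 and KRT4 in only 2. In the others the edgeR adjusted p rose to as much as 0.416 for KRT1 and 0.392 for KRT4. KRT10 differed by -0.94, -0.54 and -0.054 within numbers and by -0.54 ± 0.17 in the block fit (edgeR adjusted p = 0.218), or by -0.25 without soft-to-soft 1 (edgeR adjusted p = 0.499). These are bulk libraries, in which fewer suprabasal cells and less keratin RNA per cell cannot be told apart. Nothing in the labels tells whether the replicates were separate cultures. The p-values therefore speak only of how much these samples vary, and that variation may be technical.

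LPA conditioning without the inhibitor was compared with no treatment, LPA-to-soft against soft-to-soft. All 4 members were lower in LPA-to-soft within each replicate number, and none passed the test. How many of all genes were lower within each number was not counted here. The differences within numbers 1, 2 and 3 were -1.33, -0.96 and -0.53 for KRT1 and -1.47, -1.69 and -0.36 for KRT4. They were -0.94, -0.26 and -0.10 for KRT10, and -0.65, -1.49 and -0.51 for KRT13. With the block the fold changes on the log2 scale were -0.98 ± 0.46 for KRT1, -1.22 ± 0.45 for KRT4, -0.46 ± 0.17 for KRT10 and -0.88 ± 0.20 for KRT13, with edgeR adjusted p from 0.353 to 0.648. Without soft-to-soft 1 the value of KRT10 was -0.18 (edgeR adjusted p = 0.618). Of all genes edgeR called 0, with or without the block; DESeq2 called 2 without it and 82 with it, KRT1, KRT4, KRT10 and KRT13 not among them. At an unadjusted p under 0.05 edgeR had 211 genes without the block and 1231 with it.

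FAK inhibition at replating was compared in cells that had all been conditioned with LPA, LPA-to-FAKi against LPA-to-soft. KRT1 and KRT4 had large negative values here and KRT10 and KRT13 small ones, a difference between genes that was not itself tested. KRT1 differed by -3.54, -2.27 and -1.62 within numbers 1, 2 and 3, and KRT4 by -2.78, -1.14 and -1.19. KRT10 differed by -0.28, -0.21 and -0.029. KRT13 differed by -0.50, 0.48 and -0.11, so that it was higher in 1 number and lower in the other two. For KRT1 and KRT4 all LPA-to-FAKi libraries were below all LPA-to-soft libraries, whereas for KRT10 and KRT13 the conditions overlapped. How many of all genes separate these conditions was not counted. CD68 averaged 28.8 ± 13.5 CPM in LPA-to-FAKi and 12.7 ± 3.77 CPM in LPA-to-soft libraries (SD, n = 3 each), a block-fit value of 1.14 ± 0.22 that did not pass (edgeR adjusted p = 0.0752), and its part in these differences was not tested.

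None of these differences passed the test in edgeR. With the block the log2 fold change of LPA-to-FAKi over LPA-to-soft was -2.40 ± 0.52 for KRT1 (edgeR adjusted p = 0.0757), -1.54 ± 0.47 for KRT4 (edgeR adjusted p = 0.109), -0.17 ± 0.17 for KRT10 (edgeR adjusted p = 0.589) and -0.042 ± 0.20 for KRT13 (edgeR adjusted p = 0.921). For KRT1 2 other tools called it with the block, limma voom at -3.04 (adjusted p = 0.0419) and DESeq2 at -2.30 (adjusted p = 0.0108). EdgeR called 0 genes in this comparison, with or without the block, and had 838 at an unadjusted p under 0.05 without it and 3439 with it. DESeq2 called 5 genes without the block. With the block DESeq2 called 1231 and voom 37. Of the genes tested 22.2% were lower in LPA-to-FAKi than in LPA-to-soft in all 3 numbers, as 3 of the 4 members were.

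LPA-to-FAKi against soft-to-soft sets the cells with both agents beside those with neither, and here KRT1, KRT4 and KRT10 had larger block-fit differences than in the 3 comparisons above, whereas that of KRT13 was larger in stiff-to-soft over soft-to-soft. KRT1 differed by -4.86, -3.23 and -2.15 within numbers 1, 2 and 3, and KRT4 by -4.25, -2.82 and -1.54. Both were called lower with the block, KRT1 at -3.38 ± 0.53 (edgeR adjusted p = 0.0251) and KRT4 at -2.75 ± 0.48 (edgeR adjusted p = 0.0383). Without the block the values were -4.11 ± 1.32 and -3.25 ± 0.87 with adjusted p of 0.999 for each. With the block 2 of the 4 members were called, against 0.564% of all genes, with 0.408% called lower and 0.155% higher. For KRT1, KRT4 and KRT10 all LPA-to-FAKi libraries were below all soft-to-soft libraries. The share of all genes separated in this way was not computed. CD68, at 13.1 ± 3.34 CPM in soft-to-soft libraries (SD, n = 3), had a value of 1.08 ± 0.22 here (edgeR adjusted p = 0.0641).

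KRT10 and KRT13 had smaller values in the same comparison. KRT10 differed by -1.22, -0.47 and -0.13 within numbers and by -0.63 ± 0.17 with the block (edgeR adjusted p = 0.119), or by -0.35 without soft-to-soft 1 (edgeR adjusted p = 0.316). KRT13 differed by -1.15, -1.01 and -0.63 within numbers and by -0.92 ± 0.20 with the block (edgeR adjusted p = 0.0732), and it was called in 1 of the 12 fits that left out 1 library, the one without stiff-to-soft 1 (-0.94, edgeR adjusted p = 0.0481). The calls of KRT1 and KRT4 were lost without soft-to-soft 1 and 2, when the block fit gave -2.65 (edgeR adjusted p = 0.306) for KRT1 and -1.97 (edgeR adjusted p = 0.439) for KRT4, and no gene was called. When 1 library was left out at a time the block fit called KRT1 in 7 of 12 fits and KRT4 in 5 of 12. Both calls were lost without stiff-to-soft 3, LPA-to-FAKi 1, LPA-to-FAKi 2, soft-to-soft 1 or soft-to-soft 3, with KRT1 at -3.71 to -2.72 (edgeR adjusted p from 0.0512 to 0.092) and KRT4 at -3.10 to -2.19 (edgeR adjusted p from 0.0549 to 0.126). KRT4 alone was lost also without LPA-to-soft 2 (-2.76, edgeR adjusted p = 0.0697) or LPA-to-soft 3 (-2.72, edgeR adjusted p = 0.0659).

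**Figure D2:**
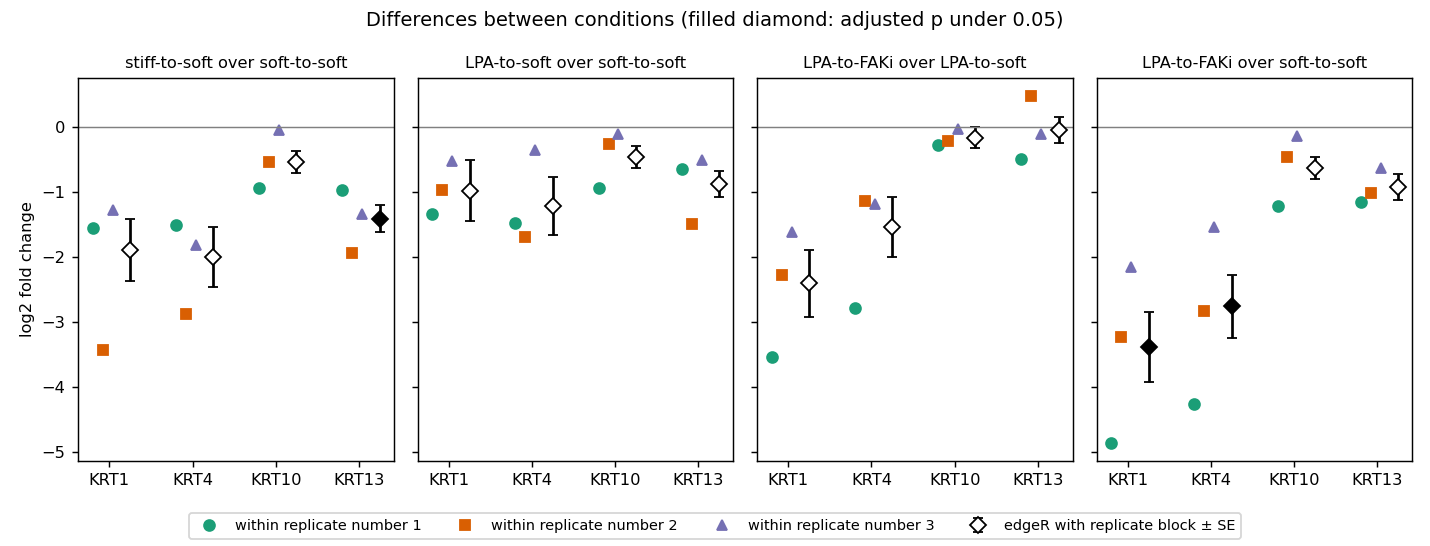
Log2 fold changes of the 4 keratins in 4 comparisons, one panel each, with the first condition named in a panel over the second; coloured points are differences within a replicate number and diamonds the edgeR fit with the replicate block, with bars of 1 SE. KRT1 and KRT4 lie below 0 in every panel and number, KRT10 does so with values from -1.22 to -0.029, and KRT13 scatters around 0 in LPA-to-FAKi over LPA-to-soft.

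In the remaining comparisons of conditions no member was called. Stiff-to-soft over LPA-to-soft gave log2 fold changes with the block of -0.91 for KRT1, -0.78 for KRT4, -0.074 for KRT10 and -0.53 ± 0.20 for KRT13, with edgeR adjusted p from 0.504 to 0.905, and 0.00648% of genes were called. The class that had learned was compared with the other class as 6 against 6 libraries, as the design of the series states. With the block KRT13 stood at -0.73 ± 0.25 (edgeR adjusted p = 0.397), and 0.00648% of genes were called. KRT1 differed by 0.99, -0.58 and 0.18 between the class means within numbers 1, 2 and 3, and KRT4 by 0.63, -0.88 and -0.32, so neither kept one sign. The class that had not learned holds both the condition where KRT1 and KRT4 were highest, soft-to-soft, and LPA-to-FAKi, where they were lowest in replicate number 1. Without the block edgeR called 0 genes in each of these comparisons, with 215 and 446 at an unadjusted p under 0.05, and DESeq2 also called 0.

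The ratio of the 2 chains of a pair within a library does not depend on library size. KRT13 over KRT4, the oral pair, stood at 5.02, 8.62 and 8.64 counts per count in stiff-to-soft libraries 1, 2 and 3, and at 29.8, 15.7 and 11.6 in LPA-to-FAKi libraries. It stood at 6.15, 5.13 and 5.52 in LPA-to-soft libraries and at 3.46, 4.46 and 6.16 in soft-to-soft libraries. The 3 LPA-to-FAKi libraries were above the other 9. KRT10 over KRT1, the epidermal pair, stood at 0.936, 17.0 and 5.80 in stiff-to-soft libraries and at 7.66, 15.5 and 10.2 in LPA-to-FAKi libraries. It stood at 0.796, 3.69 and 3.35 in LPA-to-soft libraries and at 0.611, 2.26 and 2.49 in soft-to-soft libraries. Here the LPA-to-FAKi libraries were above those of LPA-to-soft and soft-to-soft, and stiff-to-soft overlapped all conditions. These ratios restate the levels given above, are descriptions and were not tested. The share of gene pairs separated in this way was not computed.

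**Figure D3:**
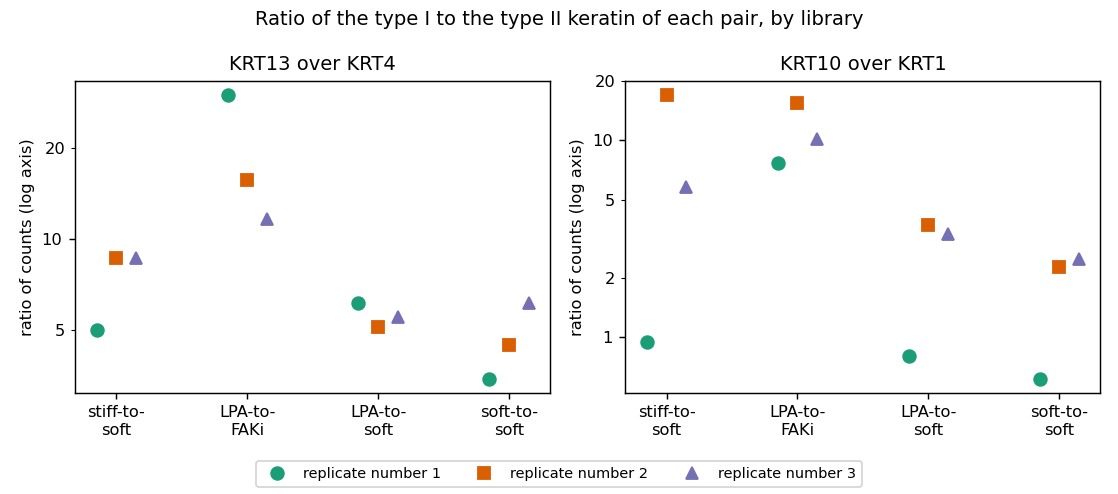
Ratio of the counts of the type I to the type II chain of each suprabasal pair in each library, on log axes, with KRT13 over KRT4 on the left and KRT10 over KRT1 on the right; colour and shape give the replicate number. The LPA-to-FAKi libraries hold the 3 highest KRT13 over KRT4 ratios, 11.6 to 29.8, against 3.46 to 8.64 in the other 9 libraries.

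Replicate number held a larger raw share of the variation than condition did for KRT10 and KRT13, and a smaller one for KRT1 and KRT4. In a split of the sums of squares on the log2 scale, replicate number held 43.6% of the variation of KRT1 and condition 45.9%. The same shares were 28.5% and 56.7% for KRT4, 42.5% and 35.7% for KRT10, and 64.4% and 29.7% for KRT13. Over all genes tested, replicate number held 47.2% and condition 22.5%. A split into 4 conditions takes up a larger share by chance than one into 3 replicate numbers. The shares are not corrected for that. In a model with condition, libraries numbered 1 were above those numbered 3 by 2.44 ± 0.44 on the log2 scale for KRT1 (edgeR adjusted p = 0.00127), by 1.90 ± 0.41 for KRT4 (edgeR adjusted p = 0.00399), by 0.49 ± 0.14 for KRT10 (edgeR adjusted p = 0.019) and by 1.77 ± 0.18 for KRT13 (edgeR adjusted p = 3.87e-05). All 4 were called in a contrast that called 39.8% of all genes, with 19.2% of all genes higher and 20.6% lower. The 4 members were also called higher in number 1 than in number 2, by 0.59 for KRT10 to 2.93 for KRT1, where 36% of genes were called, with 17% higher and 19% lower. KRT10 in number 1 over 3 was not called without soft-to-soft 3 (edgeR adjusted p = 0.0779) or without soft-to-soft 1 and 2 (edgeR adjusted p = 0.0614). KRT4 in number 1 over 2 was not called without stiff-to-soft 2, LPA-to-soft 2 or soft-to-soft 1 (edgeR adjusted p = 0.0607, 0.0576 and 0.0548). Between numbers 2 and 3 no member was called, and 23.7% of genes were.

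The size of the step between numbers was not the same in every condition. On the log2 scale KRT4 in library 1 minus library 3 was 2.97 in stiff-to-soft, -0.043 in LPA-to-FAKi, 1.55 in LPA-to-soft and 2.66 in soft-to-soft. For KRT1 the same differences were 2.93, 0.51, 2.42 and 3.21. For KRT13 they were 2.19, 1.31, 1.70 and 1.83, and for KRT10 0.30, 0.099, 0.35 and 1.19. The high level of the libraries numbered 1 was thus seen for KRT13 in every condition and was not seen for KRT4 under the inhibitor. These differences were not tested, since a condition has 1 library per number.

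Other genes of squamous maturation were set beside the 4 keratins by the same fits. Of the other suprabasal keratins 10 of 11 were tested, and none was called in any comparison of conditions. Their median log2 fold change with the block was -0.725 in stiff-to-soft over soft-to-soft and -0.311 in LPA-to-FAKi over soft-to-soft, against a median near 0 for all genes. Of the 10, 8 stayed at or below 10.9 CPM in every library, and KRT23 ran from 7.93 to 51.7 CPM. KRT80, a keratin of many differentiating epithelia, was far more abundant, at 502 ± 174 CPM in stiff-to-soft, 529 ± 178 in LPA-to-FAKi, 394 ± 146 in LPA-to-soft and 313 ± 58.1 in soft-to-soft (SD, n = 3 each), and its values of 0.64 in stiff-to-soft and 0.72 in LPA-to-FAKi over soft-to-soft did not pass (edgeR adjusted p = 0.134 and 0.0764). Both are named after their values were seen.

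Of the basal and stress keratins 8 of 8 were tested. In stiff-to-soft over soft-to-soft 3 were called lower with the block and none higher, against 0.343% of all genes lower and 0.24% higher. These were KRT14, the basal type I chain, by -1.68 (edgeR adjusted p = 0.048), KRT15, a keratin of basal cells, by -0.73 (edgeR adjusted p = 0.00384), and KRT17, which wounded and cancer cells make, by -0.75 (edgeR adjusted p = 0.0185). KRT14 had 592, 101 and 117 CPM in stiff-to-soft libraries and 1050, 683 and 292 CPM in soft-to-soft libraries. The basal chain was therefore lower in the same comparison in which the suprabasal KRT13 was lower. In LPA-to-FAKi over soft-to-soft only KRT15 of this list was called, by -0.55 (edgeR adjusted p = 0.0192), against 0.408% of all genes called lower. Of the 5 simple keratins KRT7, a keratin of glandular epithelia, was called higher in stiff-to-soft over soft-to-soft, by 0.81 (edgeR adjusted p = 0.0402). It had 49.0, 97.4 and 60.5 CPM in stiff-to-soft libraries and 30.2, 42.7 and 40.5 CPM in soft-to-soft libraries. None of the calls in this paragraph held in the block fit without soft-to-soft 1 and 2, as for KRT13 above.

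Of the genes of the spinous and upper layers 13 of 16 were tested, and none was called in a comparison of conditions. In stiff-to-soft over soft-to-soft 11 of the 13 had a negative value, with a median of -1.04. The median of all genes was -0.0023 there, and the share of all genes with a negative value was not computed. The 13 genes were measured in the same libraries and are not separate observations. In LPA-to-FAKi over LPA-to-soft 3 of 13 were negative and the median was 0.202. IVL, the envelope protein involucrin, had 13.3 ± 14.3 CPM in stiff-to-soft, 22.9 ± 21.8 in LPA-to-FAKi, 18.3 ± 15 in LPA-to-soft and 26.6 ± 18.6 in soft-to-soft (SD, n = 3 each). LOR, the late envelope protein loricrin, had no count in any library, and DSG1 and TGM3, also of upper layers, did not pass the low-count filter. FLG, of the granular layer, stayed below 0.39 CPM.

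Of the genes of oral mucosa 11 of 16 were tested, and all 11 had a negative value in stiff-to-soft over soft-to-soft, with a median of -1.22. The median of all genes was -0.0023 there, and the share of all genes with a negative value was not computed. The 11 genes were measured in the same libraries and are not separate observations. TMPRSS11D, an airway and oral serine protease, was the only 1 of the 11 called in that comparison, by -1.22 (edgeR adjusted p = 0.00547). With the block 0.343% of all genes were called lower in it. TMPRSS11D had 16.4, 2.71 and 3.69 CPM in stiff-to-soft libraries and 37.0, 8.33 and 6.82 CPM in soft-to-soft libraries. CLCA4, a protein of the oesophageal and oral lining, was called in LPA-to-FAKi over soft-to-soft, by -2.69 (edgeR adjusted p = 0.0252), against 0.408% of all genes called lower. It had 2.47, 0.309 and 0.252 CPM in LPA-to-FAKi libraries and 22.3, 1.41 and 1.24 CPM in soft-to-soft libraries. In that comparison 7 of the 11 genes had a negative value and 4 a positive one, with a median of -0.29. Neither call held in the block fit without soft-to-soft 1 and 2.

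Regulators of squamous maturation were 32, and all were tested. In stiff-to-soft over soft-to-soft 4 were called lower with the block and none higher, against 0.343% of all genes lower and 0.24% higher. They were KLF5, a Krüppel-like factor of proliferating epithelia, at -0.54 (edgeR adjusted p = 0.012), SOX2, a squamous lineage factor, at -1.14 (edgeR adjusted p = 0.012), ZNF750, which promotes epidermal differentiation, at -1.06 (edgeR adjusted p = 0.017), and HES1, a Notch target, at -0.60 (edgeR adjusted p = 0.0449). In LPA-to-FAKi over soft-to-soft 3 were called lower and none higher, against 0.408% of all genes lower and 0.155% higher. They were HES1 at -0.73 (edgeR adjusted p = 0.0251), HEY1, another Notch target, at -1.29 (edgeR adjusted p = 0.0253), and ZNF750 at -0.93 (edgeR adjusted p = 0.0295). Both comparisons share the soft-to-soft libraries, and without soft-to-soft 1 and 2 the block fit called no gene in either.

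ZNF750 and HES1 were thus called in both. ZNF750 had 89.6, 31.5 and 75.9 CPM in stiff-to-soft libraries, 70.5, 38.1 and 101 in LPA-to-FAKi libraries, 154, 53.4 and 114 in LPA-to-soft libraries and 200, 58.2 and 166 in soft-to-soft libraries. HES1 had 294, 189 and 380 CPM in stiff-to-soft libraries, 227, 164 and 428 in LPA-to-FAKi libraries, 391, 218 and 447 in LPA-to-soft libraries and 453, 254 and 638 in soft-to-soft libraries. Within each number soft-to-soft was highest for both, as for the 4 keratins and for 3.15% of the genes tested. Since both were picked as called below soft-to-soft in stiff-to-soft and LPA-to-FAKi, this order follows in large part from that choice. Unlike the keratins, HES1 was highest in the library numbered 3 in every condition. No gene of any list was called without the block in a comparison of conditions, and none was called in LPA-to-FAKi over LPA-to-soft or LPA-to-soft over soft-to-soft with it.

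**Figure D4:**
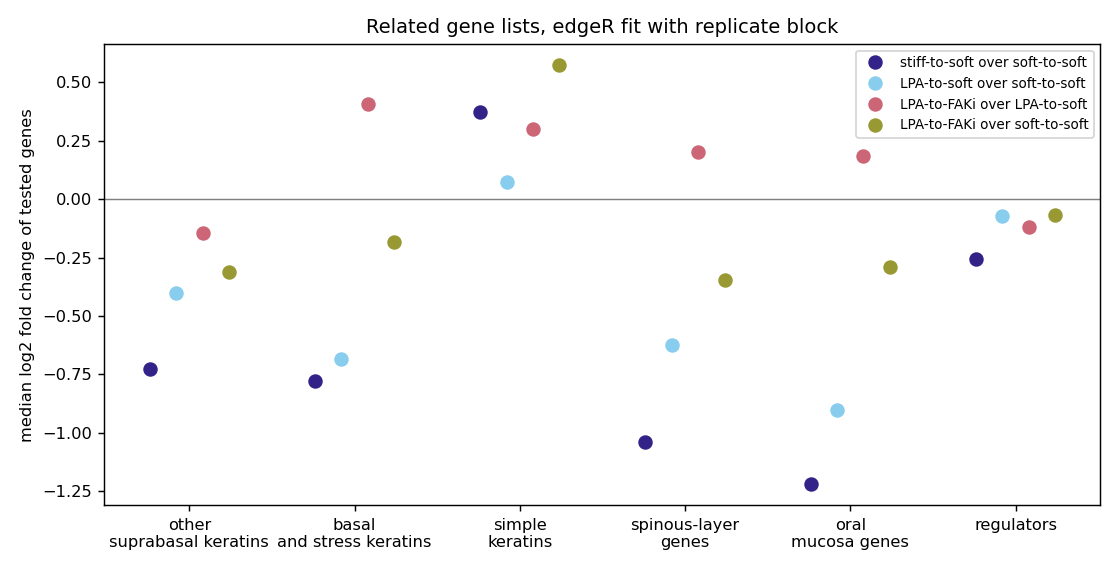
Median log2 fold change of the tested genes of 6 lists in 4 comparisons, from the edgeR fit with the replicate block, with the first condition named in the legend over the second. The medians of the spinous-layer and oral mucosa genes are -1.04 and -1.22 in stiff-to-soft over soft-to-soft and 0.202 and 0.184 in LPA-to-FAKi over LPA-to-soft.

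In number 1 over number 3, 8 of the 10 tested other suprabasal keratins, 7 of 8 basal and stress keratins, 10 of 13 spinous genes and 10 of 11 oral mucosa genes were called higher, against 19.2% of all genes. One spinous gene was called lower, as were 2 of the 5 simple keratins, none of which was called higher. Of the 32 regulators 14 were called higher and 3 lower.

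The genes with profiles most like each member over the 12 libraries were found by Pearson correlation of log2 CPM, given as a description over libraries that share conditions and replicate numbers. With the mean of each replicate number taken off, KRT4 was the gene most like KRT1 among 15436 (r = 0.965), ahead of OASL (0.963), RUNX3 (0.955), ABCA13 (0.953) and CCDC14 (0.952). The genes most like KRT4 were KLHL13 (0.981), RAB15 (0.980), POF1B (0.967), KRT1 (0.965) and RUNX3 (0.964). KRT1 and KRT4 thus followed each other across conditions. KRT10, the pairing partner of KRT1, ranked 372 for KRT1 (r = 0.790), and KRT13, the partner of KRT4, ranked 420 for KRT4 (r = 0.786). In the other direction KRT1 ranked 75 for KRT10 and KRT4 ranked 229 for KRT13. With nothing taken off the partners stood nearer, KRT10 at rank 74 for KRT1 (r = 0.880) and KRT13 at rank 88 for KRT4 (r = 0.825). In that measure KRT4 ranked 15 for KRT1 and KRT1 ranked 2 for KRT4 (r = 0.929).

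KRT10 and KRT13 had other nearest genes. With the replicate means taken off, KRT10 was most like TPRG1L (0.935), PDIA3P1 (0.926), NTF3 (0.902), DLX6 (0.884) and GLTP (0.882). KRT13 was most like FAM135A (0.974), KRT14 (0.955), SLC9A3R1 (0.954), KLK11 (0.950) and DGKA (0.949). KRT14 was thus nearer to KRT13 than any of the other 3 suprabasal keratins was. Over the 12 libraries with nothing taken off, CCDC14 came first for KRT1 (0.961) and for KRT4 (0.935), TPRG1L for KRT10 (0.932) and FAM135A for KRT13 (0.979). In that measure KRT14 stood at 0.973 for KRT13, as did HSPA2, after SNORA70 and PKP1, a desmosomal plakophilin, at 0.975 each.

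Neighbouring genes and shared sequence were checked for reads that could belong elsewhere. KRT15, next to KRT13 on chromosome 17, averaged 394 CPM, and the other immediate neighbours in the keratin clusters stayed below 5 CPM on average. KRT1 and KRT4 transcripts shared no window of 50 bases with another gene. KRT10 shared 9 of 2075 windows (0.434%) with TMEM99, which overlaps it on the opposite strand. KRT13 shared 17 of 1650 windows (1.03%) with KRT15, and 286 windows (17.3%) with AC019349.1, an antisense gene that was not a row of the count table. The strand setting of the counting is not given in the sources used here, so for KRT13 and KRT10 reads of the opposite strand cannot be told apart from their own.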

How the data were processed

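The labels name an RNeasy kit for the RNA and a stranded TruSeq kit for the libraries. The authors deposited whole-number counts of reads for each gene symbol, used for every result here, and log2 values. The deposited log2 values equalled the log2 of 1 plus the count scaled by a constant of its library, to a relative range of 6.93e-09, and entered no test. Per the submitters' processing notes cutadapt, FastQC, STAR, HTSeq and DESeq2 were used, on genome build hg19. For their settings, for the strand setting and for the annotation, the sources used here give nothing. No column was without a sample.

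The test was the quasi-likelihood F test of edgeR 4.0.16 (R 4.3.3) on counts with TMM scaling and the edgeR filter on low counts, adjusted by Benjamini-Hochberg over 15437 genes, with 0.05 as threshold. Conditions were contrasts over all 12 libraries and classes were fitted as 6 against 6. Replicate number is left out of the main fit and enters a parallel fit as a replicate block. Once condition means were removed, r ranged from 0.312 to 0.659 for 18 pairs of libraries sharing a number, and from -0.517 to 0.037 for 36 pairs sharing neither number nor condition. The threshold being 0.1, the numbers (taken from the sample titles) pair the samples. SE is the size of the log2 fold change over the root of F. A prior count of 2 was added for log2 CPM. DESeq2 1.42.0 and voom of limma 3.58.1 were alternatives, and the scripts were tested on simulated data. Transcript lengths and shared windows came from GENCODE on GRCh38, and promoters from RefSeq on GRCh38.p14.

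From each list up to 4 genes called in a comparison, without or with the block, are named, and the 5 genes most like each member. The members and lists were chosen with earlier results of these data known. The values of 1 gene of the leukocyte list are not reported here.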

Additional observations from a re-analysis of the deposited data

Results flagged for a closer look

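KRT1 in soft-to-soft 1, at 114.2 CPM, lay far from the other 5 libraries of the class that had not learned, of which the nearest had 14.99 CPM. The gap made up 0.881 of the whole range. KRT10 in the same library, at 69.77 CPM, lay far from the rest of that class, where the nearest had 33.9 CPM (0.793 of the range). It also lay far from the other 3 libraries numbered 1, where the nearest had 36.3 CPM (0.84 of the range). Dixon's test was run on CPM in 20 groups, and at the 95% level it picks a small share of groups by chance. It was not run on the log2 scale, on which high values stand less far apart. The class that had not learned holds both LPA-to-FAKi and soft-to-soft libraries. Soft-to-soft 1 is 1 of the 2 libraries whose low counts were not mostly even, and the part of that in these values was not tested.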

How the results depend on the processing

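Over the alternatives tried, and set for conditions against the fit without the block, 994 of 1087 recomputed log2 fold changes of the 4 keratins kept their direction and their side of the threshold, 37 changed sign, 49 passed only in the alternative and 7, all of contrasts between replicate numbers, were no longer called. Without the block edgeR called 0 genes between conditions or classes. A value there could gain a call but not lose one, so the share kept does not bear on the block calls. Of the calls made with the block, leaving out 1 library kept KRT13 in 9 of 12 fits in stiff-to-soft over soft-to-soft, and KRT1 in 7 and KRT4 in 5 in LPA-to-FAKi over soft-to-soft. None of these calls changed sign. KRT1 in stiff-to-soft over soft-to-soft and KRT13 in LPA-to-FAKi over soft-to-soft did change sign in some fits without the block. Both were called in other fits with the block. TMM against median-ratio scaling, the low-count filter and halving the even counts changed no call or direction in the fit without the block and were not run with the block for conditions. That fit had no call between conditions to lose. The causes were not tested.

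With replicate number as a block edgeR called 90 genes in stiff-to-soft over soft-to-soft, with KRT13 at -1.41, and 87 in LPA-to-FAKi over soft-to-soft, with KRT1 at -3.38 and KRT4 at -2.75. It called 1 gene in stiff-to-soft over LPA-to-soft and 1 between the classes. The block changed no other call of a member. With the replicate block, voom called 119, 37 and 176 genes in stiff-to-soft over soft-to-soft, LPA-to-FAKi over LPA-to-soft and LPA-to-FAKi over soft-to-soft, and 1 gene in each of the last 2 comparisons named. It called KRT1 at -1.69, KRT4 at -1.91 and KRT13 at -1.40 in the first, KRT1 at -3.04 in the second, and KRT1 at -4.07, KRT4 at -3.19 and KRT13 at -0.93 in the third. Between the classes voom turned KRT1 to 0.62 and KRT4 to 0.014. With the replicate block, DESeq2 called 456, 1231 and 704 genes in those 3 comparisons, 82 in LPA-to-soft over soft-to-soft, 71 in stiff-to-soft over LPA-to-soft and 129 between the classes. It called KRT4 at -2.01, KRT10 at -0.54 and KRT13 at -1.41 in the first, KRT1 at -2.30 in the second, and KRT1 at -3.28, KRT4 at -2.73, KRT10 at -0.63 and KRT13 at -0.92 in the third. Without the block DESeq2 called 4, 5 and 3 genes in them and 2 in LPA-to-soft over soft-to-soft.

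Without soft-to-soft 1 and 2 and with no block, soft-to-soft is 1 library numbered 3, which is assumed to vary like the other conditions. KRT1 then stood at 0.29 in stiff-to-soft and KRT13 at 0.081 in LPA-to-FAKi over soft-to-soft. In LPA-to-soft over soft-to-soft KRT1 stood at 0.73, KRT4 at 0.35, KRT10 at 0.0084 and KRT13 at 0.27, and between the classes they stood at 1.79, 1.13, 0.10 and 0.0081. Number 1 over 3 then gave 0.24 for KRT10, no longer called, and number 2 over 3 called 2028 genes. With the block and without these libraries, 202 genes were called in LPA-to-FAKi over LPA-to-soft, with KRT1 at -2.43 (adjusted p = 0.0495), and 1 in stiff-to-soft over LPA-to-soft and 4 between the classes, where KRT1 stood at 1.17, KRT4 at 0.68 and KRT10 at 0.094.

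With the block and without the libraries numbered 1, edgeR called 254 genes in stiff-to-soft over soft-to-soft, with KRT1 at -2.24, KRT4 at -2.42 and KRT13 at -1.65, 26 in LPA-to-FAKi over soft-to-soft, with KRT4 at -2.25, and 1 in LPA-to-soft over soft-to-soft. KRT13 in LPA-to-FAKi over LPA-to-soft stood at 0.16. Without those numbered 2 it called 51 genes in LPA-to-FAKi over soft-to-soft and 5 in LPA-to-FAKi over LPA-to-soft, and KRT10 in stiff-to-soft over LPA-to-soft stood at 0.031. Without those numbered 3 it called 2 genes in stiff-to-soft over soft-to-soft, and KRT13 in LPA-to-FAKi over LPA-to-soft stood at 0.0083. Without a condition term KRT10 in number 1 over 3, at 0.56, and KRT4 in number 1 over 2, at 1.45, were not called.

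Leaving out 1 library at a time, without and with the block, gave 0 to 228 genes called in stiff-to-soft over soft-to-soft, with KRT1 from -3.88 to 0.15, KRT4 from -3.40 to -0.91 and KRT13 from -2.29 to -0.68. LPA-to-FAKi over soft-to-soft had 0 to 307 genes, KRT1 from -4.57 to -2.32, KRT4 from -3.69 to -2.19 and KRT13 from -1.45 to -0.44. LPA-to-FAKi over LPA-to-soft had 0 to 639 genes, KRT1 from -3.32 to -1.57, called in 1 of 24 fits, and KRT13 from -0.63 to 0.63. KRT1 ran from -2.55 to 0.59 in LPA-to-soft over soft-to-soft. Stiff-to-soft over LPA-to-soft had 0 to 3 genes, KRT1 from -2.68 to 0.91, KRT4 from -2.04 to 0.27, KRT10 from -0.24 to 0.084 and KRT13 from -1.47 to 0.40. Between the classes there were 0 to 4 genes, with KRT1 from -1.02 to 1.33, KRT4 from -1.04 to 0.28 and KRT10 from -0.34 to 0.049. Number 1 over 3 gave 0.29 to 0.61 for KRT10, number 1 over 2 gave 1.03 to 1.88 for KRT4, and number 2 over 3 called 1901 to 4041 genes. Per kilobase of transcript instead of coding sequence KRT10 was above KRT4 in 8 of 12 libraries. Depth limits the scarce keratins most, while the 4 members had at least 139 counts in every library.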
